A study of Mus musculus with 9 samples.

Results

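Chromatin is rebuilt and DNA methylation is copied behind the replication fork by the products of the genes followed here: Chaf1a, Chaf1b, Asf1a, Asf1b, Nasp, Hat1, Uhrf1, Dnmt1 and Hells. They were chosen by name for what their products do, with earlier results of these data known. These 9 genes are among 54532 listed genes. All 9 passed the filter on low values, which kept 11727 genes for testing that reached 1 FPKM or more in 3 or more libraries. FPKM counts fragments relative to the length of the gene and the size of the library. The cells were b.End3, an immortalized line derived from mouse brain capillaries, from the C57BL/6 strain according to the labels, although the growth protocol calls it rat. Ctrl cells were labelled untreated, and the labels name neither photosensitizer nor light for them. Ep1 and Ep2 cells had formed a monolayer, took up the photosensitizer porfimer sodium at 300 µg/mL for 90 min, and were then exposed to a 635 nm laser at 100 mW/cm2, with a light dose of 10 J/cm2 in Ep1 and 20 J/cm2 in Ep2. Photodynamic therapy (PDT) of this kind makes reactive oxygen species inside the illuminated cells. Each group had 3 libraries of 1 cell line, and nothing says that they came from separate cultures, so the p-values measure only the spread between these libraries, which may be technical. The time between light and lysis was not given in the sources used here, and none of these groups received the drug or the light alone.

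The endothelial label was checked against markers. Of 15 endothelial markers, 3 (Flt1, Egfl7 and Eng) passed the filter, 11 stayed below 1 FPKM in every library, and of those Emcn, Erg and Robo4 were at 0 in all libraries. The remaining marker, Cdh5, reached at most 1.09 FPKM. Pecam1 reached at most 0.242 FPKM and Cldn5 at most 0.076. Of 7 epithelial markers 4 passed the filter, and the keratin genes Krt8, Krt18 and Krt19 averaged 640, 237 and 174 FPKM in Ctrl. Epcam averaged only 0.812 FPKM in Ctrl, Cdh1 and Cldn4 reached at most 0.103 and 0.177 FPKM, and Krt7 was at 0 in all libraries. The cells are therefore called b.End3 here and not by a cell type. The libraries held 16240688 to 19509225 fragments counted on genes, and the chi-square between libraries of one group was 2.81 to 15.2 per degree of freedom, above the value of 1 that counting error alone would give.

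When a replication fork passes, nucleosomes are taken apart and rebuilt on both daughter strands. New histones H3 and H4 are acetylated by the enzyme Hat1, held by the chaperone Nasp, handed on by Asf1a or Asf1b, and laid on DNA by chromatin assembly factor 1 (CAF-1), whose larger subunits are Chaf1a and Chaf1b. In parallel, Uhrf1 binds DNA that carries methyl groups on the old strand only and brings in Dnmt1, the maintenance methyltransferase, while the nucleosome remodeler Hells opens chromatin for it. Most of these genes are known for high expression in dividing cells, and several are classic targets of the E2F transcription factors.

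At 20 J/cm2, 8 of the 9 genes were lower than in Ctrl, and Asf1a was the exception. The falls were largest for Asf1b, Uhrf1 and Chaf1b, which kept 42.2%, 45.2% and 43.5% of their Ctrl level, and smallest for Hat1 and Dnmt1, which kept 72.0% and 72.5%. All 8 passed an adjusted p-value below 0.05 (limma on log2(FPKM + 1), Benjamini-Hochberg adjustment over all tested genes), and in all 8 the Ep2 libraries lay below every Ctrl library. Over all tested genes, 29.3% were called lower and 23.9% higher in this comparison, and 32.7% had Ep2 libraries fully below Ctrl. The balance over all genes turned with scaling, from 3436 lower and 2800 higher genes to 2971 and 3311 after median centring. The threshold for differentially expressed genes (DEGs), an absolute log2 fold change above 0.6 in addition, was passed downward by 5 of the 9, against 5.87% of all tested genes. The median log2 fold change of the 9 genes was -0.75, beside -0.03 for all tested genes. In RNA from whole cultures, fewer cells in which a gene is on and less RNA per cell cannot be told apart.

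**Figure D1:**
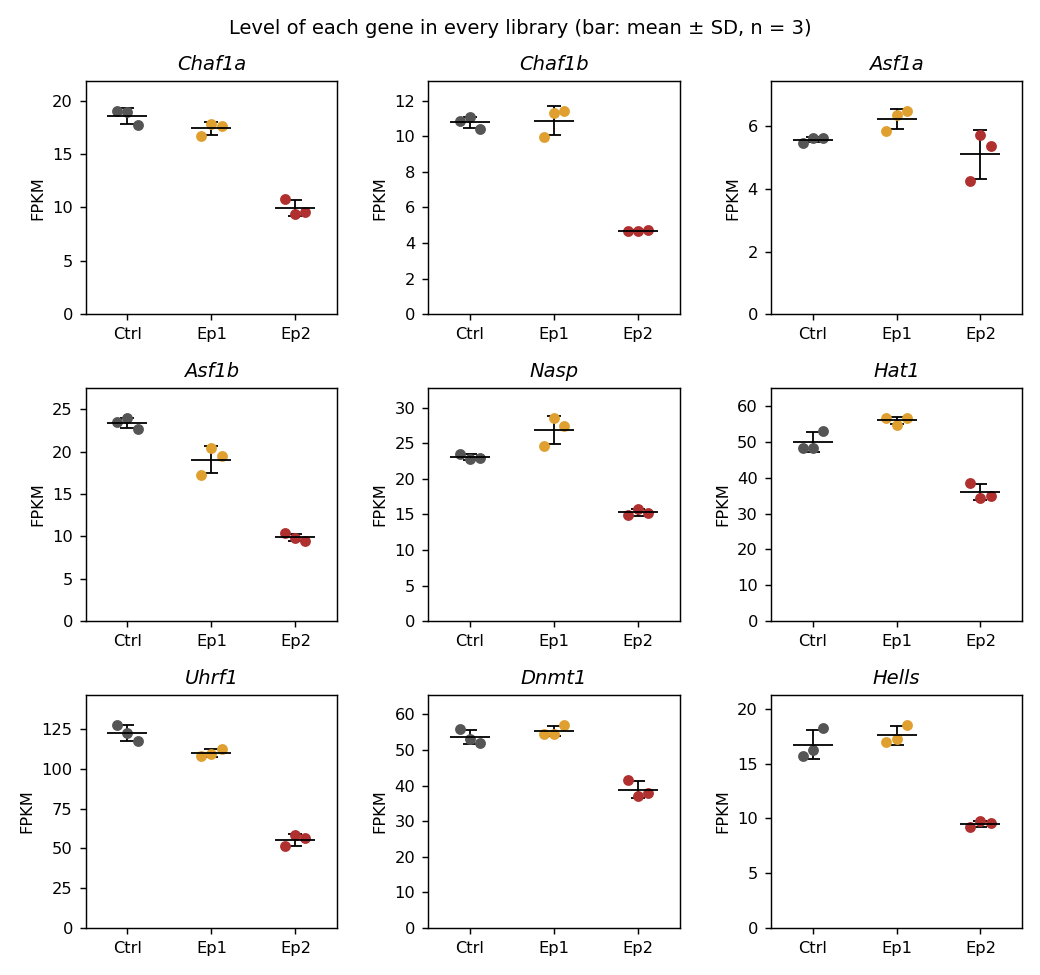
FPKM of each of the 9 genes (vertical axes, starting at 0 and scaled per gene) in the 3 libraries each of Ctrl, Ep1 and Ep2 (points), with the mean and SD of each group (black bars). The Ep2 points lie below all Ctrl points in every panel except Asf1a, and Uhrf1 has the highest level, with a Ctrl mean of 122.5 FPKM.

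CAF-1 carries new H3-H4 to the clamp PCNA at the fork. Chaf1a (ENSMUSG00000002835, GRCm38 chromosome 17, 56040439 to 56072289, plus strand), the large subunit, measured 18.98, 18.94 and 17.70 FPKM in the Ctrl libraries, 16.72, 17.78 and 17.66 in Ep1, and 10.78, 9.40 and 9.56 in Ep2. Ep1 overlapped Ctrl, and all Ep2 libraries were well below both. The group means were 18.54 ± 0.727, 17.39 ± 0.582 and 9.915 ± 0.756 FPKM (SD, n = 3 libraries each), and the log2 fold change of Ep2 with Ctrl was -0.84 (SE 0.058, limma adjusted p = 6.98e-06). Its partner Chaf1b (ENSMUSG00000022945, chromosome 16, 93883901 to 93906115, plus strand), the middle subunit, measured 10.85, 11.06 and 10.42 FPKM in Ctrl, 9.94, 11.30 and 11.39 in Ep1, and 4.66, 4.68 and 4.71 in Ep2. The Ep1 libraries lay on both sides of Ctrl, whereas the Ep2 libraries were low and nearly equal. The log2 fold change of Chaf1b in Ep2 was -1.05 (SE 0.056, limma adjusted p = 2.82e-06). The gene Ubxn6 on the opposite strand overlaps Chaf1a at 2.72 to 3.08 FPKM, and how the counting treated strand was not given in the sources used here, so reads of the shared stretch cannot be told apart.

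Both CAF-1 genes hold the E2F motif TTCCCGC close to a start site, and so do Uhrf1 and Hells. TTCCCGC was found in 4.6% of all promoter windows, and Asf1b, which fell the most, had no match. The part of the motif in the falls was not tested. The stretches are shown because Chaf1a, Chaf1b, Uhrf1 and Hells are among the 5 genes past the DEG threshold. They are 30 bases each from the RefSeq promoter windows on GRCm38.p6, printed 5′ to 3′ along the gene's plus strand, with the motif (GCGGGAA where it reads on the other strand) in capitals:
Chaf1a, chr17:56040358-56040387: ggttgccgcggTTCCCGCcaaatacgagcg
Chaf1b, chr16:93883663-93883692: tcctccgaggcGCGGGAAtgggattcccag
Chaf1b, chr16:93883916-93883945: gcctgcggcgcGCGGGAAgctgcgggctgt
Uhrf1, chr17:56303278-56303307: tgctttctcgcTTCCCGCcacagcgccagc
Hells, chr19:38930918-38930947: accaccgggttTTCCCGCgaaagagaagcg
The motif starts 47 bases upstream of the start site in Chaf1a, 48 in Uhrf1 and 61 in Hells. In Chaf1b the first match starts 227 bases upstream and the other at base 27 after the start.

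The paralogs Asf1a and Asf1b parted. Asf1 proteins pass H3-H4 dimers to CAF-1 or, outside replication, to the Hira complex, and Asf1b is the form known from dividing cells. Asf1b (ENSMUSG00000005470, chromosome 8, 83955507 to 83970197, plus strand) measured 23.53, 23.94 and 22.73 FPKM in Ctrl, 17.28, 20.45 and 19.45 in Ep1, and 10.34, 9.83 and 9.48 in Ep2. The 3 groups did not overlap, with Ctrl highest, Ep1 between and Ep2 lowest, at means of 23.40 ± 0.615, 19.06 ± 1.62 and 9.884 ± 0.436 FPKM (SD, n = 3 each). Ctrl differs from Ep1 in both drug and light. Its log2 fold change in Ep2 was -1.17 (SE 0.062, limma adjusted p = 2.82e-06), the largest fall among the 9 genes.

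Asf1a (ENSMUSG00000019857, chromosome 10, 53596757 to 53609225, plus strand) measured 5.46, 5.62 and 5.61 FPKM in Ctrl, 5.84, 6.36 and 6.46 in Ep1, and 4.23, 5.71 and 5.35 in Ep2. Ep2 replicate 1 was the lowest library, replicate 2 was above all Ctrl libraries, and Ep2 overlapped Ctrl, whereas the Ep1 libraries were above all others. The log2 fold change of Ep2 with Ctrl had a 95% interval of -0.31 to 0.08 (limma adjusted p = 0.293), which leaves room for a modest fall but not for one the size of that of Asf1b. Asf1a had the fewest fragments of the 9 genes, 293 in its poorest library. It overlaps Mcm9 on the opposite strand, which stood at 1.78 to 1.97 FPKM. The letters TTTGAA were found in 3 of the 12 promoter windows of the 9 genes (of Asf1b, Nasp and Dnmt1) and in 17.9% of all windows. Nasp and Dnmt1 fell less than Asf1b, and the part of these letters in the falls was not tested. In the Asf1b window no E2F motif was found. Its window does hold TTTGAA, the core of the cell cycle homology region (CHR) known from genes of late cell cycle phases, from 14 bases upstream of the start site, shown in capitals because Asf1b fell the most:
Asf1b, chr8:83955668-83955697, plus strand: cggagccggctaTTTGAAgggagcgcgctg

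Nasp and Hat1 act before CAF-1, on histones that are not yet on DNA. Nasp (ENSMUSG00000028693, chromosome 4, 116601052 to 116627941, minus strand), which keeps a reserve of soluble H3-H4, measured 23.50, 22.77 and 22.90 FPKM in Ctrl, 24.64, 28.49 and 27.41 in Ep1, and 14.84, 15.75 and 15.22 in Ep2. It was highest in Ep1 and lowest in Ep2, with no overlap between any of the groups. Against Ctrl, Ep2 kept 66.2% of the level, a log2 fold change of -0.56 (SE 0.055, limma adjusted p = 3.84e-05) just short of the DEG threshold, which it passed only after correction for gene length and GC content (-0.65). A Nasp pseudogene, Nasp-ps1, was listed at 0 in all libraries, and whether its reads were counted on Nasp was not tested.

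Hat1 (ENSMUSG00000027018, chromosome 2, 71388958 to 71441622, plus strand), which acetylates new histone H4, measured 48.34, 48.29 and 53.22 FPKM in Ctrl, 56.62, 54.85 and 56.65 in Ep1, and 38.61, 34.45 and 34.87 in Ep2. Like Nasp it was highest in Ep1 and lowest in Ep2, and no groups overlapped. Its mean of 35.97 ± 2.29 FPKM in Ep2 lay below 49.95 ± 2.83 in Ctrl (SD, n = 3 each), and the log2 fold change was -0.46 (SE 0.056, limma adjusted p = 0.000124).

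Of the genes that copy methylation, Uhrf1 was the most abundant and fell the most. Uhrf1 (ENSMUSG00000001228, chromosome 17, 56303321 to 56323486, plus strand) measured 127.49, 122.70 and 117.46 FPKM in Ctrl, 107.93, 109.16 and 112.48 in Ep1, and 51.17, 58.23 and 56.61 in Ep2. No groups overlapped, Ep1 lay between Ctrl and Ep2, and the lower level in Ep1 did not pass against Ctrl (limma adjusted p = 0.0900). In Ctrl it stood above 96.8% of the tested genes. The log2 fold change in Ep2 was -1.13 (SE 0.054, limma adjusted p = 2.02e-06), from 122.5 ± 5.02 to 55.34 ± 3.70 FPKM (SD, n = 3 each).

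Dnmt1 (ENSMUSG00000004099, chromosome 9, 20907209 to 20959888, minus strand), the enzyme that Uhrf1 recruits, kept more of its level. It measured 55.78, 53.02 and 52.09 FPKM in Ctrl, 54.56, 54.43 and 56.99 in Ep1, and 41.51, 37.10 and 37.97 in Ep2. Ep1 overlapped Ctrl and Ep2 lay below both. The Ctrl mean was 53.63 ± 1.92 FPKM and the Ep2 mean 38.86 ± 2.34 (SD, n = 3 libraries each), which gave a log2 fold change of -0.46 (SE 0.05, limma adjusted p = 7.74e-05). Hells (ENSMUSG00000025001, chromosome 19, 38930915 to 38971051, plus strand), also called LSH, measured 15.71, 16.26 and 18.28 FPKM in Ctrl, 16.97, 17.25 and 18.54 in Ep1, and 9.23, 9.73 and 9.59 in Ep2. Its Ctrl libraries spread widely and covered most of Ep1, while the Ep2 libraries were close together and kept 56.8% of the Ctrl mean (log2 fold change -0.75, SE 0.061, limma adjusted p = 1.51e-05).

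**Figure D2:**
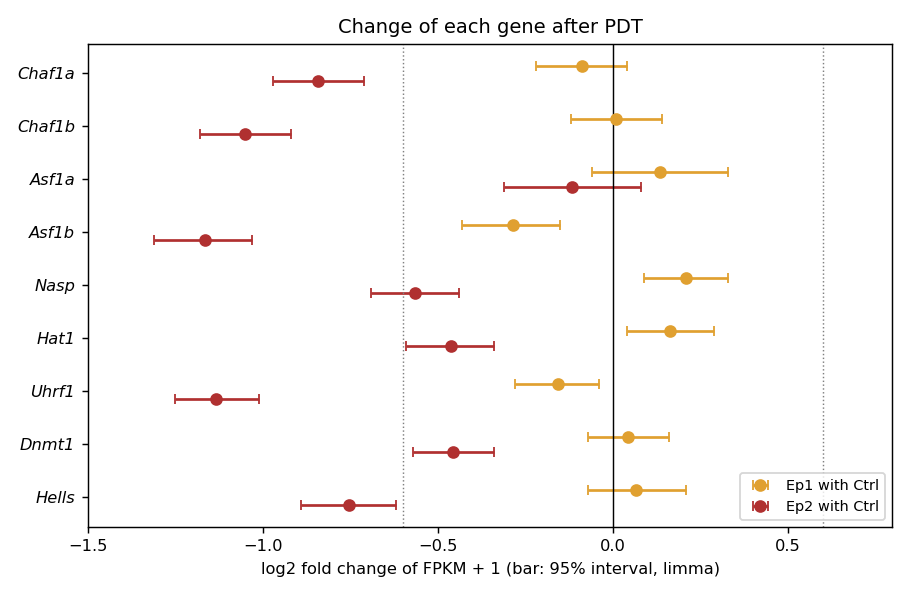
Log2 fold change of FPKM + 1 (horizontal axis) of each of the 9 genes in Ep1 with Ctrl (yellow) and Ep2 with Ctrl (red), with 95% intervals from limma, and dotted lines at the DEG threshold of 0.6. In Ep2, 5 genes lie beyond the threshold with Asf1b at -1.17, whereas all Ep1 values lie between -0.29 and 0.21.

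At 10 J/cm2, 7 of the 9 genes were not called in either direction. Of the 9, 1 was lower (Asf1b) and 1 higher (Nasp) at an adjusted p-value below 0.05 in limma, where 4.97% of all tested genes were called lower and 6.32% higher. Asf1b kept 81.4% of its Ctrl level (log2 fold change -0.29, 95% interval -0.43 to -0.15, adjusted p = 0.0229). This call was lost without the filter on low values and without Ctrl replicate 1, Ctrl replicate 2, Ep1 replicate 1 or Ep1 replicate 3, and the adjusted p ranged up to 0.0983 over 19 alternatives. Nasp stood at 116.4% of Ctrl (log2 fold change 0.21, 95% interval 0.09 to 0.33, adjusted p = 0.0413), and this call held in only 9 of 19 alternatives, with an adjusted p of up to 0.183. It was lost without the filter on low values and with replicate number as a block in the model. Correction for gene length, alone or with GC content, removed this call too. It was also lost without Ctrl replicate 1, 2 or 3, without Ep1 replicate 2 or 3, and without Ep2 replicate 2. Hat1 (112.2% of Ctrl, adjusted p = 0.0858) and Uhrf1 (89.6%, adjusted p = 0.0900) missed the threshold, although their libraries did not overlap with Ctrl. Both passed it when Ep2 replicate 1 was left out of the fit (adjusted p = 0.0347 and 0.0278), and over all alternatives their adjusted p reached 0.253 and 0.374.

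In Ep1 the libraries were fully above Ctrl for 3 of the 9 genes (Asf1a, Nasp and Hat1) and fully below for 2 (Asf1b and Uhrf1), while 20.8% of all tested genes were fully higher and 20.5% fully lower. At this dose 0.793% of all tested genes were DEGs in either direction in limma, and none of the 9 was, in limma or in voom on recovered fragments. Without adjustment, 4 of the 9 had a p-value below 0.05 in limma, beside 29.5% of all tested genes. The intervals of Chaf1a (-0.22 to 0.04), Chaf1b (-0.12 to 0.14), Dnmt1 (-0.07 to 0.16) and Hells (-0.07 to 0.21) bound the changes at 10 J/cm2, and each bound is smaller than the fall of the same gene in Ep2. The median log2 fold change of the 9 genes was 0.04, beside -0.01 for all tested genes.

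Between the doses, all 9 genes were lower in Ep2 than in Ep1 at an adjusted p-value below 0.05, and all 9 had Ep2 libraries fully below Ep1. Of all tested genes, 25.2% were called lower and 18.8% higher, and 30.3% were fully lower. This split depended on scaling: 2950 lower and 2206 higher genes became 2383 and 2974 after median centring of each library. Of the 9 genes, 7 were DEGs downward, against 3.97% of all tested genes. Nasp (log2 fold change -0.77, limma adjusted p = 1.27e-05) and Hat1 (-0.63, limma adjusted p = 3.81e-05) were DEGs here, having been highest in Ep1. The DEG call of Hat1 held in 15 of 19 alternatives and was lost under median centring (-0.57). Dnmt1 changed by -0.50 (limma adjusted p = 7.37e-05). Asf1a changed by -0.25 (limma adjusted p = 0.0411), a call that held in 9 of 19 alternatives, with an adjusted p of up to 0.119. Among the settings that lost this call were median centring (-0.20) and leaving out Ep2 replicate 1 (-0.14), any 1 of the Ctrl libraries, or Ep1 replicate 2 or 3. The Ep1 and Ep2 comparisons with Ctrl share their control libraries, so their values stand side by side and are not independent.

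A ratio of FPKM within a library does not depend on how that library was scaled, and the added 1 in the tested log2 ratio makes it depend on scale to a small degree for weakly expressed genes. Asf1b exceeded Asf1a 4.21-fold in Ctrl, 3.06-fold in Ep1 and 1.98-fold in Ep2 on average in FPKM, with single libraries between 4.05 and 4.31, between 2.96 and 3.22, and between 1.72 and 2.45. Ep2 replicate 1 had the highest of the Ep2 ratios, yet it stayed below every Ep1 library. The mean log2 ratio of FPKM + 1 differed by -1.05 between Ep2 and Ctrl (exact permutation test, two-sided, p = 0.1, the smallest p that 3 against 3 libraries allow). The CAF-1 subunits drew apart in the other direction, with Chaf1a 1.72-fold above Chaf1b in Ctrl, 1.60-fold in Ep1 and 2.12-fold in Ep2, and their log2 ratio differed by 0.21 between Ep2 and Ctrl (exact permutation p = 0.1), or by 0.29 with a pseudocount of 0.1.

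Uhrf1 was set against Uhrf2, a relative with the same domains that does not replace it in methylation copying. Uhrf1 exceeded it 19.8-fold in Ctrl, 19.4-fold in Ep1 and 9.59-fold in Ep2, and the log2 ratio differed by -1.05 between Ep2 and Ctrl (exact permutation p = 0.1). Dnmt1 was set against Dnmt3a, a methyltransferase that acts on unmethylated DNA. Their ratio was 7.73 in Ctrl, 8.77 in Ep1 and 5.50 in Ep2, and the log2 ratio differed by -0.48 between Ep2 and Ctrl (exact permutation p = 0.1). In each of the 4 pairs the Ep2 libraries did not overlap with Ctrl. Among the log2 ratios of FPKM + 1, only that of Dnmt1 to Dnmt3a had Ep1 libraries that overlapped with Ctrl. In plain FPKM, however, the ratio of Uhrf1 to Uhrf2 was 19.8 in each Ctrl library and 19.1 to 19.8 in Ep1.

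**Figure D3:**
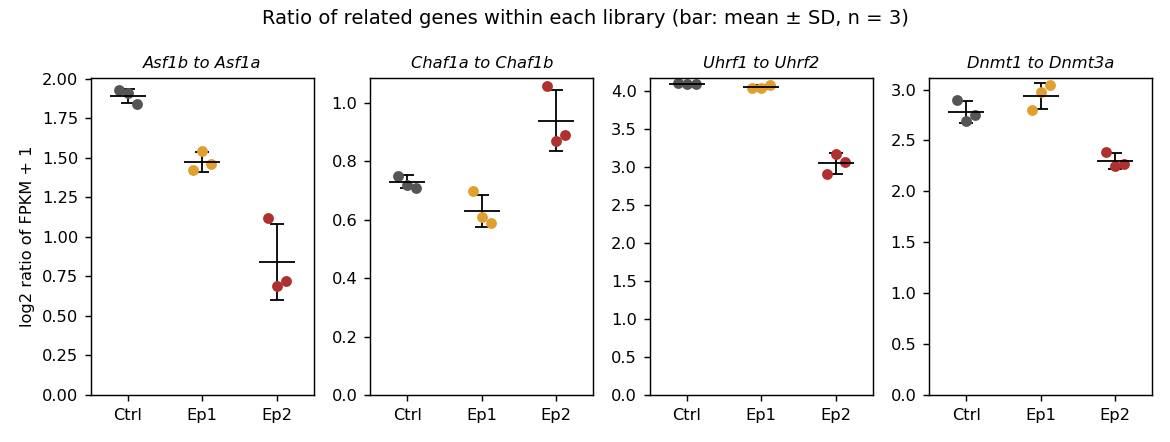
Log2 ratio of FPKM + 1 of related genes within each library (points, vertical axes starting at 0) in Ctrl, Ep1 and Ep2, with the mean and SD of 3 libraries (black bars). The ratio of Asf1b to Asf1a falls from 1.89 in Ctrl through 1.47 in Ep1 to 0.84 in Ep2, while that of Chaf1a to Chaf1b is highest in Ep2, at 0.94.

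The order of the levels changed little between the groups. In Ctrl it ran from Uhrf1 through Dnmt1, Hat1, Asf1b, Nasp, Chaf1a, Hells and Chaf1b to Asf1a, in FPKM, which corrects for gene length. The library ranges overlapped between Dnmt1 and Hat1, between Asf1b and Nasp, and between Chaf1a and Hells, so these neighbours did not differ beyond their spread. In Ep2 Nasp stood clear above Asf1b, the levels of Chaf1a, Asf1b and Hells ran into each other around 10 FPKM, and Chaf1b came down to the level of Asf1a, with overlapping ranges. Uhrf1 stayed on top in all 3 groups.

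How closely the genes moved together was described by the root mean square difference between their profiles over 9 libraries, each profile being the deviation of log2(FPKM + 1) from the Ctrl mean. The closest pair was Hat1 and Dnmt1 (0.091), followed by Nasp and Hat1 (0.113), Asf1b and Uhrf1 (0.117), and Chaf1b and Uhrf1 (0.123). This measure mostly reflects the size of the change in Ep2. The farthest pair was Asf1a and Asf1b (0.664). Hells lay nearest to the mean profile of the 9 genes (0.069), and Asf1a farthest from it (0.371).

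Among all other tested genes, those closest to this mean profile were Mcm3 (0.035), a subunit of the replicative helicase, Rrm1 (0.040), a subunit of ribonucleotide reductase, Ncapg (0.041) of condensin, Knl1 (0.043) of the kinetochore, and Mki67 (0.046), the gene of the proliferation marker Ki-67. The median of this difference over tested genes outside the 9 was 0.433. The likeness describes these 9 libraries, in which those of a group share their treatment.

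**Figure D4:**
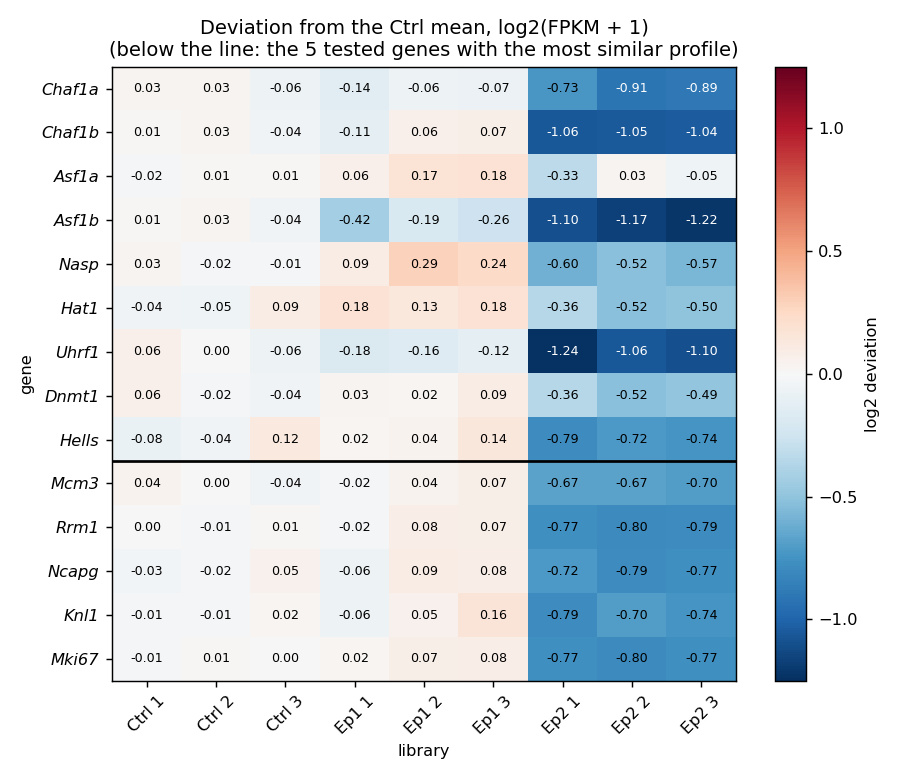
Deviation of log2(FPKM + 1) from the Ctrl mean (color and printed value) in each of the 9 libraries (columns) for the 9 genes and, below the line, the 5 tested genes with the most similar mean profile (rows). The Ep2 columns range from -1.24 (Uhrf1 in replicate 1) to 0.03 (Asf1a in replicate 2), and Asf1b reaches -0.42 in Ep1 replicate 1.

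The partners of these genes at the fork were taken as a list of 14 genes, all tested. In Ep2, 10 of the 14 were lower and 2 higher than Ctrl at an adjusted p-value below 0.05. Of all tested genes, 29.3% were lower and 23.9% higher. The median log2 fold change of the 14 was -0.38, and after median centring 8 were lower and 2 higher. Mcm2, the helicase subunit that also binds parental histones, fell the most (-0.95, limma adjusted p = 1.91e-06). Rbbp4 and Rbbp7, the histone-binding proteins of which Rbbp4 is the small CAF-1 subunit, both changed by -0.13 (limma adjusted p = 0.0452 and 0.0244), and these calls held in 6 and 11 of 19 alternatives. Within CAF-1, the replication-specific subunits Chaf1a and Chaf1b had log2 fold changes of -0.84 and -1.05, beside the small value of the subunit that CAF-1 shares with other complexes. The 2 genes that rose were Tlk1 (0.43, limma adjusted p = 0.000102) and Tlk2 (0.24, limma adjusted p = 0.000546), the kinases that phosphorylate Asf1 proteins. Tlk2 and Tonsl, which reads new histones behind the fork (-0.85, limma adjusted p = 7.89e-05), are named after their values were seen.

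Other histone chaperones formed a list of 17 genes, all tested, which act in transcription, in the nucleolus or at centromeres. In Ep2, 11 were lower and 2 higher, beside 29.3% and 23.9% of all tested genes. The median log2 fold change of the 17 was -0.24. After median centring 10 were lower and 3 higher, with a median of -0.19. The extremes were Npm3, a nucleolar chaperone (-1.10, limma adjusted p = 3.40e-06), and Atrx, which places histone H3.3 in heterochromatin (0.36, limma adjusted p = 0.00164), the latter with 0.11 and no call (adjusted p = 0.0551) after correction for gene length and GC content. Hira, which receives histones from Asf1a outside replication, is named after its value was seen. It changed by -0.30 (limma adjusted p = 0.00391).

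Among 11 tested genes of 12 other methylation writers and partners, 7 were lower in Ep2, beside 29.3% of all tested genes. The median log2 fold change of the 11 was -0.41. Pclaf, a PCNA-bound protein that helps to bring in Dnmt1, fell by 1.04 on the log2 scale (limma adjusted p = 1.72e-06). Dnmt3b, which like Dnmt3a methylates unmethylated DNA, had a Ctrl mean of 1.66 ± 0.168 FPKM and an Ep2 mean of 0.745 ± 0.0652 (SD, n = 3 libraries each), and its log2 fold change was -0.61 (limma adjusted p = 0.000361). Dnmt3b is among the 7 lower genes, although it passed the filter only through libraries outside Ep2. Cdca7, which activates Hells, changed by -0.41 (limma adjusted p = 0.00123). The 4 genes that did not pass were Zbtb24 (0.10), a transcription factor that switches on Cdca7, Dnmt3a (0.02), Uhrf2 (-0.08) and, named after its value was seen, Usp7 (0.05), a deubiquitinase that binds Uhrf1 and Dnmt1. Their limma adjusted p-values lay between 0.177 and 0.796.

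Genes that read or remove DNA methylation, together with relatives from the same families, formed another list. Of 12 listed, 11 were tested, and in Ep2 6 of them were higher and 2 lower, with a median log2 fold change of 0.18, beside the 23.9% of all tested genes called higher and 29.3% called lower. Tet2, which oxidizes methylcytosine, had the largest rise, with a Ctrl mean of 1.80 ± 0.0506 FPKM, an Ep2 mean of 3.37 ± 0.338 (SD, n = 3 libraries each) and a log2 fold change of 0.64 (limma adjusted p = 0.00011). The lower genes were Mbd3 of the NuRD complex and, named after its value was seen, the DNA glycosylase Mbd4, both at -0.53 (limma adjusted p = 8.04e-06 and 0.000193). Median centring gave 7 higher and 2 lower genes, and correction for gene length and GC content gave 5 higher and 2 lower. The medians of these 4 related lists in Ep1 lay between -0.12 and 0.14. DNA methylation itself was not measured in these libraries.

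Germline genes that DNA methylation is known to silence were also listed. Of 14 listed, only Tdrd9 passed the filter, and the other 13 reached at most 0.128 FPKM in any library. Tdrd9, a helicase gene of the piRNA pathway, had a Ctrl mean of 1.32 ± 0.25 FPKM and an Ep2 mean of 2.61 ± 0.418 (SD, n = 3 libraries each), and its log2 fold change was 0.64 (limma adjusted p = 0.001).

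Other genes of the cell cycle moved alongside. Over all tested genes, 29.3% were called lower and 23.9% higher in Ep2 with Ctrl. Of 39 S phase genes without the 9 genes, 38 were lower in Ep2, with a median log2 fold change of -0.72. Cdc6, which loads the helicase, fell by 1.23 on the log2 scale, and Casp8ap2 had the highest value, -0.08. Of 52 G2/M genes, 49 were lower and 1 higher, with a median of -0.63, from Psrc1 at -1.38 to Gas2l3 at 0.26. The median of -0.75 over the 9 genes lay close to both lists, which share some genes with the partner lists (Mcm2, Pcna, Slbp and Cdca7 with S phase, Hjurp and Anp32e with G2/M). In Ep1 the medians of the S phase and G2/M lists were 0.02 and 0.04, with 1 S phase gene higher, and 2 G2/M genes higher and 1 lower (Kif2c, -0.26, limma adjusted p = 0.0354, named after its value was seen). Whether the share of cycling cells differed between the groups was not tested.

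**Figure D5:**
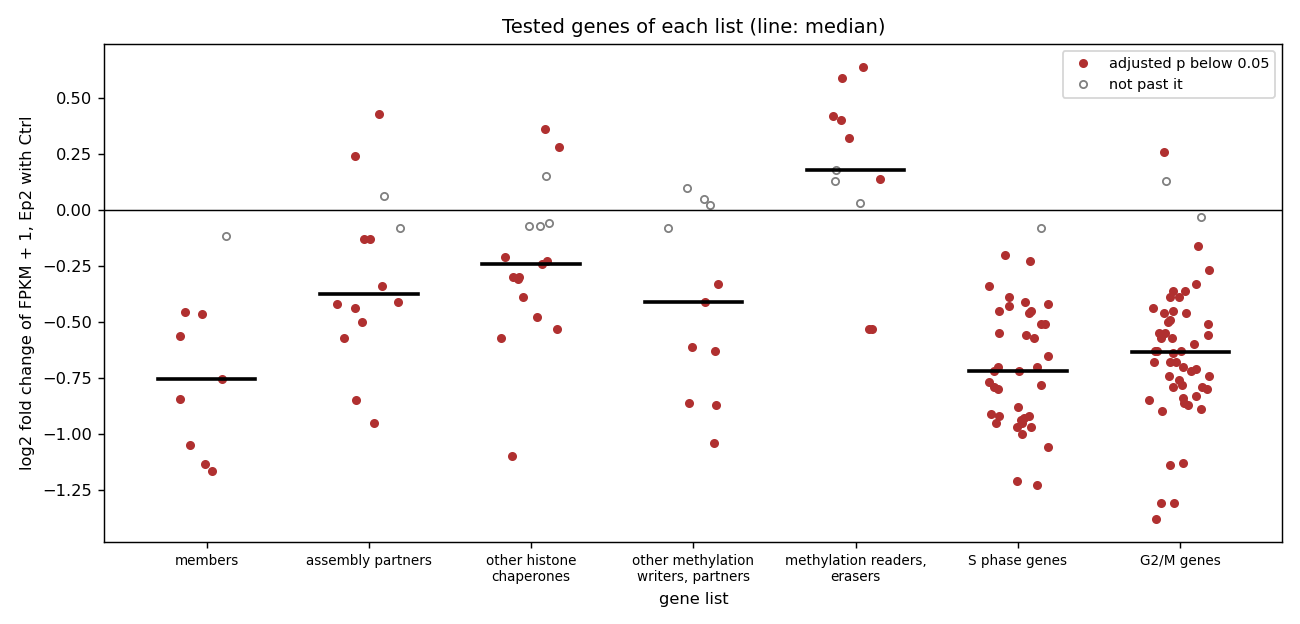
Log2 fold change of FPKM + 1 in Ep2 with Ctrl (vertical axis) of the tested genes of each list (points, filled red where the adjusted p-value was below 0.05), with the median of the list (black line) and the 9 genes described here at the left as members. The medians are -0.75 for the 9 genes, -0.72 for S phase and -0.63 for G2/M genes, and 0.18 for methylation readers and erasers.

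Markers of other cell types were set beside these values. The summed FPKM of the epithelial markers was 1030 to 1080 in Ctrl, 937 to 1040 in Ep1 and 1160 to 1370 in Ep2. The keratins Krt18 (0.37, limma adjusted p = 0.000887) and Krt19 (0.70, limma adjusted p = 0.00127) were higher in Ep2 than in Ctrl on the log2 scale. Krt8, the most abundant of these markers, changed by 0.04 and did not pass (limma adjusted p = 0.53). Cdh1, Cldn4 and Krt7 did not pass the filter. Epcam averaged 0.812 FPKM in Ctrl and 1.77 in Ep2, and it passed the filter only through Ep2. The endothelial markers summed to 11.7 to 12.4 in Ctrl, 11.8 to 13.4 in Ep1 and 14.8 to 15.9 in Ep2, with Flt1 as the gene that rose (log2 fold change 0.59, limma adjusted p = 9.67e-05). Fibroblast and pericyte markers, 2 of 9 tested, summed to 42.0 to 44.1, 37.4 to 42.4 and 41.5 to 50.2. None of 6 leukocyte markers passed the filter, and their sum reached at most 0.21. The part of these markers in the falls of the 9 genes was not tested.

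The promoter windows, 250 bases before and 50 after each start site in RefSeq, were available for all 9 genes, with 12 windows in total. The E2F motifs TTCCCGC and TTGGCGC, searched on both strands, were found in 5 of these 12 windows, each of a different gene, and in 6.8% of all 32851 windows. The fifth gene was Dnmt1, with TTGGCGC (2.5% of all windows) at base 35 after one of its start sites, shown because it is the only other match to an E2F motif:
Dnmt1, chr9:20952574-20952603, minus strand: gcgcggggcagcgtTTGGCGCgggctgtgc
TTCCCGC alone was found in 4 of the 12 windows and in 4.6% of all windows. Asf1a, Asf1b, Nasp and Hat1 had no match to these letters in their windows. CCAAT, the motif of NF-Y, stood in 9 of the 12 windows, from 7 genes, and in 37.4% of all windows, and GGGCGG, the motif of SP1, in 9 of the 12, from 8 genes, and in 35.7%. TTTGAA stood in 3 of the 12 windows (of Asf1b, Nasp and Dnmt1) and in 17.9% of all windows. The 4 genes with TTCCCGC had log2 fold changes between -1.13 and -0.75 in Ep2, and the 4 genes without an E2F match between -1.17 and -0.11. A match of letters is a description of the sequence and no evidence of binding.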

How the data were processed

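Total RNA of 9 b.End3 libraries was sequenced. The authors deposited 1 FPKM value, fragments relative to gene length and to library size, per gene and library, and the 9 single tables equal the joint table. The submitters' processing notes name Bowtie 0.12.2 and mm8, the study's methods name GRCm39, and the listed coordinates of all 9 genes overlap their GRCm38 positions in RefSeq, so GRCm38 is used. The counting tool is not given in the sources used here.

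FPKM multiplied by gene length gave whole fragments for 100% of values (tolerance 0.05). FPKM was transformed to log2(FPKM + 1), which understates the change of weakly expressed genes. Genes that reached 1 FPKM in 3 or more libraries were fitted in 1 model over all libraries (limma 3.58.1 in R 4.3.3, variance trend, robust estimation), with Benjamini-Hochberg adjustment within each comparison. DEGs were called at an adjusted p below 0.05 with a log2 fold change beyond 0.6 in either direction. The fit was tested on simulated data. Pair ratios were compared by two-sided exact permutation tests. Motifs were searched with Python 3.11.15.

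The 9 genes, the gene lists and the tests were chosen with earlier results of these data known. Named besides the 9 genes are, per related list, the genes with the lowest and highest log2 fold change in Ep2 with Ctrl, Rbbp4, Rbbp7, Uhrf2, Dnmt3a, Dnmt3b, Cdca7 and Zbtb24, the 5 genes of most similar profile, and cell type markers. Alternatives were median centring, a pseudocount of 0.1, no filter, a filter at 5 FPKM, a replicate block, only the groups compared, voom on the recovered fragments, no robust estimation, correction for gene length, each replicate left out and, chosen after seeing the data, correction for gene length and GC content.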

Additional observations from a re-analysis of the deposited data

How the results depend on the processing

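In Ep2 with Ctrl, each of the 9 genes kept its direction and its side of the adjusted p-value threshold in all 19 alternatives. Nasp alone crossed the DEG threshold, after correction for gene length and GC content, which gave 6 DEGs in place of 5. The counts of genes called and of DEGs stayed within 1.5 times in Ep2 with Ctrl and in Ep2 with Ep1. The 4 log2 ratios kept their direction under a pseudocount of 0.1 and without single replicates. In Ep1 with Ctrl, the count of 2 genes past the adjusted p-value was 0 without a filter, 1 under the replicate block, 1 after the gene length correction, 1 after correction for gene length and GC content, 4 with only the groups compared, and between 0 and 4 without single replicates. It was 0 without Ctrl replicate 1, Ctrl replicate 2 or Ep1 replicate 3, and 4 without Ep2 replicate 1. The cause was not tested. Replicate numbers gave no sign of pairing: same-numbered libraries had correlations of deviations between -0.056 and 0.074, and other pairs between -0.108 and 0.153. With 3 libraries per group, these correlations cannot exclude that the libraries were paired. Chaf1b in Ep1, at 0.01 on the log2 scale, changed sign under voom (-0.01) and without single replicates (-0.02 to 0.07), and Hells in Ep1 turned to -0.05 after correction for gene length and GC content. Voom on 14112 genes called 927 higher and 1068 lower in Ep1 with Ctrl, and 3565 higher and 3484 lower in Ep2 with Ctrl, where the main fit called 2800 and 3436. Between 293 and 10470 fragments per library lay on each of the 9 genes, and for the genes with the fewest, counting error limits the values as well. It was 5.8% for Asf1a and 5.2% for both Chaf1b and Asf1b in their poorest library.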
